A study of Mus musculus with 6 samples.

Results

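B-lineage cells were a small population in this single-cell RNA sequencing series from mouse. They were chosen by raw counts, as the barcodes with 3 or more unique molecular identifiers (UMIs) of Cd79a and at least 1 of Vpreb1 or Ebf1, with no more than 1 UMI of Mrc1 and Lyve1 together and no more than 5 of Csf1r. This rule gave 171 of the 34587 barcodes that passed the quality limits of at least 1000 UMIs, at least 500 genes and at most 10% mitochondrial UMIs, a share of 0.494% (exact binomial 95% interval 0.423 to 0.574). The 6 genes of the rule are given below as a description of the members only. B-cell genes outside the rule were common among them, with Vpreb3 in 158, Igll1 in 132 and Pax5 in 126 members.

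The labels describe 6 samples in 3 groups of 2. Macrophage and monocyte lineage cells of whole E14.5 embryos came from 2 crosses with the R26tdTomato reporter. One also carried Csf1r-Mer-iCre-Mer and Csf1r-EGFP and received 4-hydroxytamoxifen at E8.5, and the other carried Cx3cr1CreER and received it at E9.5. In both, the drug switches on Cre in cells that use the Csf1r or Cx3cr1 promoter, and those cells and their progeny then carry the red reporter tdTomato. The third group was whole marrow from C57BL/6 wildtype mice aged 2 months, for which the labels name no tamoxifen.

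All data analysed here stand in 1 matrix whose barcodes end in a number from 1 to 4, and those numbers match no label. The 4 numbers are called libraries 1 to 4. The matrix was treated as 1 pooled sample, cells were not tied to an age, genotype or tamoxifen day, and no difference was tested. The matrix is named after the Cx3cr1 and Csf1r crosses and not after the marrow, but such a name does not set a group here. The labels name the reporter for the crosses and not for the wildtype marrow. With all UMIs counted, tdTomato was found in 67.6% of 863 macrophages with Lyve1 and Mrc1 in library 3 and 71.3% of 1089 in library 4. Whether the B-lineage cells are fetal or adult was not tested. Intervals are 95% intervals that cover counting error only.

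All 171 members were in libraries 3 and 4. Library 3 held 69 members, or 0.959% of its 7196 kept barcodes (0.747 to 1.21), and library 4 held 102, or 0.853% of 11959 (0.696 to 1.03). Libraries 1 and 2 held none of 8369 and 7063 kept barcodes, which allows shares of up to 0.0358% and 0.0425%. The libraries held 106500620 to 198754246 UMIs, and kept barcodes had median depths of 13077 to 14957 UMIs. Members had a median of 17909 UMIs, ranging from 1167 to 49194, and a median of 3820 genes. The barcode sequence of 6 members also occurred in another library, as did that of 1151 kept barcodes in all. Scrublet, which looks for 2 cells caught under 1 barcode, marked 214 barcodes in library 3 and no member, but it marked only 1, 0 and 0 in libraries 1, 2 and 4, where it cannot be taken to have worked.

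The edge of the rule was not sharp. With Cd79a at 1 or 2 UMIs and all else as in members there were 42 and 16 barcodes, and with 3 or 4 UMIs 6 and 6 members. Igll1 stood at 33.4 CPM (UMIs of a gene per 1000000 UMIs summed over the same barcodes) in the members with 3 Cd79a UMIs and at 123 CPM in those with 4, against 19.6 CPM in the barcodes with 2. Vpreb3 stood at 16.7 and 410 CPM in the members with 3 and 4, against 23.9 and 19.6 CPM in the barcodes with 1 and 2. Members with 3 Cd79a UMIs thus lay close to the barcodes just outside. A further 11 barcodes had 3 or more Cd79a UMIs but neither Vpreb1 nor Ebf1. Another 17, 15 of them in library 4, met the B-cell criteria but exceeded a macrophage limit, with Igll1 at 844 CPM. Their median depth was 33554 UMIs, against 17909 in members, and whether they hold 2 cells was not tested.

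B lymphocytes are made in the fetal liver and, after birth, in the bone marrow. Their progenitors depend on the transcription factors Ebf1 and Pax5, cut and rejoin immunoglobulin gene segments with the Rag1 and Rag2 recombinase, and first join the heavy chain Ighm to a surrogate light chain made of Igll1 and a Vpreb protein. That complex, with the signalling chains Cd79a and Cd79b, is the pre-B cell receptor, which drives a burst of division before a true light chain is made. In mice, fetal B lymphopoiesis runs under Lin28b, which blocks the let-7 microRNAs and raises Arid3a, and it yields B-1 cells, an innate-like kind of B cell.

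The promoters of 3 genes that mark these cells are shown, since Ebf1 is a known activator of the surrogate light chain and Cd79 genes. Each runs from 250 bases before to 50 after the start of transcription (RefSeq, GRCm38.p6), 5′ to 3′ on the gene's strand. Capitals mark CCCNNGGG, an inverted repeat of the kind Ebf1 binds, and its variant CTCNNGGG, searched on both strands. The Cd79a window lies at chr7:24897247-24897546 on the plus strand, and those of Igll1 and Vpreb1 at chr16:16863936-16864235 and chr16:16869206-16869505 on the minus strand.
Cd79a: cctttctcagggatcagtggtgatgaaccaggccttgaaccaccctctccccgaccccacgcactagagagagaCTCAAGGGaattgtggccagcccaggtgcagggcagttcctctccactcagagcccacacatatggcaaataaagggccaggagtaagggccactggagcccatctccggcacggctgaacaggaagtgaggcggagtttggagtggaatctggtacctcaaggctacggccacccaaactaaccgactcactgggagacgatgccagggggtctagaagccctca
Igll1: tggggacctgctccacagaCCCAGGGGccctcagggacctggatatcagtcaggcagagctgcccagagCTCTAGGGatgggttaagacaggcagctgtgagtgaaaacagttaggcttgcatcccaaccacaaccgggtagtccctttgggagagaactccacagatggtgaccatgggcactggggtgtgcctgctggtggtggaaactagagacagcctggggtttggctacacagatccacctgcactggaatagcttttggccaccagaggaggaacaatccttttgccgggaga
Vpreb1: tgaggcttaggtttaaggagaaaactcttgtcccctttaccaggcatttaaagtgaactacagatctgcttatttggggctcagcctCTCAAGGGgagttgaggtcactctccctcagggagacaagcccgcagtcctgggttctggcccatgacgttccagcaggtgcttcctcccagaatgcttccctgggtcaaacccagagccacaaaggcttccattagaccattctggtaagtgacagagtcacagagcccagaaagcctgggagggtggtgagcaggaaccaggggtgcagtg
Either word was found in 11154 of 32851 promoters, CCCNNGGG in 13.7% and CTCNNGGG in 24.6%. Of 35 B-lineage genes looked up, 26 had an entry, and 10 of these held either word. A match of letters is a description and does not show binding.

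Levels were compared as log2(CPM + 10) of UMIs summed over barcodes, and a gene was counted as higher or lower when it differed at least 4-fold and reached 50 CPM on either side. The small constant of 10 CPM understates the difference of low genes. List genes under 50 CPM on both sides could not be counted, whereas the shares over all compared genes leave such genes out. B-lineage cells were set against all other kept barcodes, against 409 barcodes with Flt3 and Trbc2, which mark lymphoid and early progenitors, and against 4606 macrophages with Lyve1 and Mrc1. The Flt3 Trbc2 barcodes lay almost only in the same libraries, with 187 in library 3 and 220 in library 4, and they were chosen to have no Cd79a. The medians over all genes compared were 0.12 against all others, 0.00 against Flt3 Trbc2 barcodes and 0.14 against macrophages.

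The surrogate light chain and B-cell identity genes set the members apart. Of 32 identity genes outside the rule, 16 reached 4-fold above all other barcodes and none was lower, where 2.28% of 3327 compared genes were higher and 7.63% lower. Against Flt3 Trbc2 barcodes 12 of 32 were higher, where 1.23% of 2997 genes were, and against macrophages 17 of 32, where 3.4% of 3466 genes were. In each comparison 19 of the 32 reached 50 CPM and could be counted. The median log2 difference of all 32 was 2.101, 1.56 and 2.20 in these 3 comparisons.

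Igll1 (lambda-5), the surrogate light chain, had 1147 CPM in library 3 and 988 in library 4 members, against 0.42 CPM in Flt3 Trbc2 barcodes and 0.22 in macrophages. A member of library 3 held a median of 23 Igll1 UMIs, ranging from 0 to 76, and a member of library 4 a median of 9.5, ranging from 0 to 84. The ranges of the libraries thus overlapped fully, and 132 of 171 members had the transcript. Vpreb1, a gene of the rule, had 626 CPM (599 to 654), and its near copy Vpreb2 had 266 CPM (248 to 284). The transcripts of Vpreb1 and Vpreb2 were 97.4% identical over 759 aligned bases, so how UMIs were split between them is uncertain.

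Vpreb3, which assists the assembly of the receptor in precursor B cells, had 899 and 962 CPM in members of libraries 3 and 4, against 0.42 CPM in Flt3 Trbc2 barcodes. It was found in 158 members, more than Igll1, Vpreb1 or Vpreb2. In 147 members at least 1 UMI of Igll1, Vpreb1 or Vpreb2 was present, and in 24 none.

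The signalling chain Cd79b, the partner of Cd79a, had 576 and 616 CPM in the members of libraries 3 and 4. Flt3 Trbc2 barcodes had 58.7 CPM and macrophages 68.4, so Cd79b was present in every class at a lower level. The heavy chain constant gene Ighm had 1472 CPM in members (1430 to 1515), against 325 CPM in Flt3 Trbc2 barcodes, 279 in macrophages and 40.2 in Mpo Elane progenitors. Ighm UMIs were thus also found in classes chosen to hold no Cd79a.

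Genes for signal relay from the receptor were of 2 kinds. Blnk, the adaptor of the pre-B cell receptor, had 154 CPM in members, against 2.32 in Flt3 Trbc2 barcodes and 5.40 in macrophages. Syk, Btk and Plcg2, which act in myeloid cells too, had 77.2, 72.2 and 75.9 CPM in members, against 42.0, 60.0 and 80.9 in Flt3 Trbc2 barcodes, differences under 4-fold. Of all 20 genes of this list, 8 were at least 4-fold higher than in Flt3 Trbc2 barcodes, where 1.23% of compared genes were. Cd79a and Vpreb1, which chose the members, are among the 8.

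Pax5, which commits cells to the B lineage, had 113 and 96.6 CPM in the members of libraries 3 and 4, against 1.16 CPM in Flt3 Trbc2 barcodes and 0.19 in macrophages. Ebf1, a gene of the rule, had 1172 CPM in members. Pou2af1, a coactivator of octamer-binding factors in B cells, had 140 CPM, against 0.53 in Flt3 Trbc2 barcodes. Bcl11a and Tcf3, needed earlier in lymphoid development, had 140 and 244 CPM in members, against 160 and 136 in Flt3 Trbc2 barcodes, and so lay close together in the 2 classes.

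**Figure D1:**
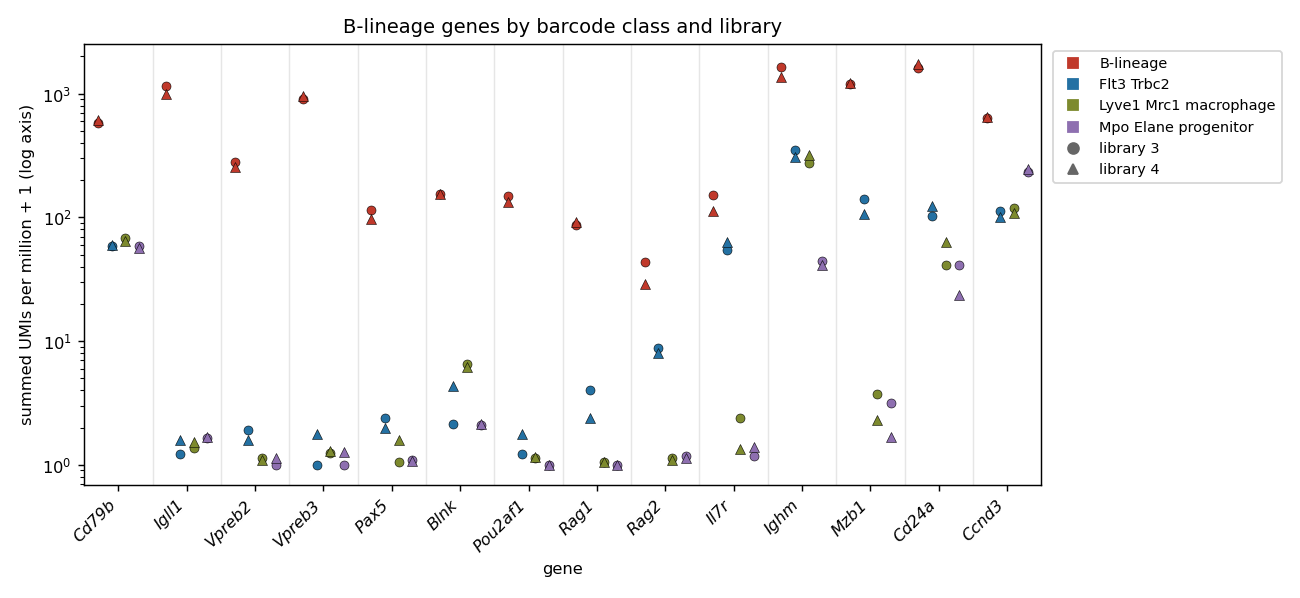
Summed CPM plus 1 (log axis) of 14 genes in the B-lineage, Flt3 Trbc2, Lyve1 Mrc1 macrophage and Mpo Elane progenitor barcodes of library 3 (circles) and library 4 (triangles). Igll1, Vpreb2, Vpreb3, Pax5 and Rag1 stand high in B-lineage barcodes of both libraries and near the floor in the other classes, whereas Ighm and Cd79b are present in every class at lower levels.

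Rag1 was found in 116 members and Rag2 in 71, and 135 had either. Rag1 had 86.0 and 91.2 CPM in the members of libraries 3 and 4, against 2.11 CPM in Flt3 Trbc2 barcodes and 0.03 in macrophages. Rag2 had 34.2 CPM in members (28.1 to 41.3) and 7.39 CPM in Flt3 Trbc2 barcodes (5.76 to 9.34). After each barcode was thinned to 2000 UMIs, Rag1 was found in 14.4% of 167 members (9.43 to 20.6), against 0.494% of 405 Flt3 Trbc2 barcodes and none of 1949 macrophages, which allows up to 0.154%. Rag2 was thus low in Flt3 Trbc2 barcodes but not near 0 there, as Rag1 was.

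Dntt (TdT), the enzyme that adds bases at immunoglobulin joints and is largely missing from fetal B-cell precursors in mice, had 2 UMIs in all members, both in library 4. That is 0.62 CPM (0.08 to 2.25), against 0 UMIs in Flt3 Trbc2 barcodes. The recombination list, which also holds general repair genes, had 1 of 12 genes at least 4-fold higher against all others, namely Rag1, where 2.28% of compared genes were. Xrcc6, part of the Ku complex that binds broken DNA ends, had 140 CPM in members and 58.8 in Flt3 Trbc2 barcodes.

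Light chain transcripts were rare. Igkc, the kappa constant gene, was found in 20 members, of which 15 had 3 or more UMIs, and the 5 highest members held 64.6% of its 291 UMIs. Igkc had 120 and 69.1 CPM in the members of libraries 3 and 4, and without its 5 highest members 32.9 CPM in all. Iglc1, the lambda constant gene, had 48 UMIs in 1 member of library 4. Variable segments of the heavy and light chains gave only 24 UMIs over 348 features.

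Ighg2b, a constant gene of class-switched antibodies, had 181 and 152 CPM in the members of libraries 3 and 4, against 0.42 CPM in Flt3 Trbc2 barcodes. It was found in 60 members, and 43 had 3 or more UMIs. Ighg1, Ighg2c, Ighg3 and Ighe had 0 UMIs in members, and Igha had 4. Ighd, the constant gene added in mature B cells, had 11.2 CPM in members, against 2.01 CPM in Flt3 Trbc2 barcodes.

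Several genes of mature B cells were nearly absent. Ms4a1 (CD20) had 2 UMIs in all members, Cr2 had 1, Fcer2a had 2, Cxcr5 had 1 and Cd40 had 5. Mzb1, an endoplasmic reticulum chaperone of B and plasma cells that the list also held, had 1212 CPM in members, against 120 in Flt3 Trbc2 barcodes and 0.94 in macrophages. Tnfrsf13c, the receptor for the survival factor BAFF, had 60.7 CPM in members and 32.2 in Flt3 Trbc2 barcodes. Of the 20 genes of this list, 4 stood 4-fold or more above all others, among them Mzb1, Tnfrsf13c and Sdc1, where 2.28% of compared genes did. The 2 genes at least 4-fold lower were Cd83 and Xbp1, where 7.63% of compared genes were lower.

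MHC class II genes were carried by few members. Cd74, the invariant chain, was found in 43 members, and the 5 highest held 497 of its 710 UMIs. It had 26.4 CPM in library 3 members and 364 CPM in library 4 members, the largest such difference among genes with 50 CPM in either library. H2-Aa and H2-Eb1 had 2.20 and 0.73 CPM in library 3 and 84.2 and 56.1 CPM in library 4. The 14 members with 3 or more Cd74 UMIs had 15.5 CPM Rag1 (4.23 to 39.7), against 95.4 CPM in the other 157.

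Apart from such genes the libraries were alike in these cells. Of 2856 genes with 50 CPM in either library, none was at least 4-fold higher in library 3 members, 5 were at least 4-fold lower, and 12 differed at least 2-fold. The 5 were Cd74, H2-Aa, H2-Eb1, Cpa3 and Hist1h2ak. Cpa3, a mast cell protease, had 12.5 CPM in library 3 and 121 CPM in library 4 members, but 1 member held 168 of its UMIs, and without it library 4 stood at 30.8 CPM. Among the genes highest in library 3 were Jund, Socs2, Klf2 and Rgs1, and Jund had 176 CPM there and 86.4 CPM in library 4. All other kept barcodes had a like split for Jund, at 196 CPM in library 3 and 85.7 in library 4.

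Progenitor genes marked the boundary with Flt3 Trbc2 barcodes. Il7r, the receptor for the main growth factor of mouse B-cell precursors, had 151 and 111 CPM in the members of libraries 3 and 4 and 58.3 CPM in Flt3 Trbc2 barcodes. Cd34, a surface marker of stem and progenitor cells, had 21.2 CPM in members and 342 in Flt3 Trbc2 barcodes. Cd34 and Cd7, 2 of 16 early progenitor genes, were at least 4-fold lower in members, where 0.701% of all genes were, and 1 of the 16 was at least 4-fold higher, where 1.23% were. Against all other barcodes 5 of the 16 were higher and none lower. Hlf and Mycn, which had 25.9 and 41.6 CPM in Flt3 Trbc2 barcodes, had 0 UMIs and 2.18 CPM in members. Flt3, which chose the other class, still had 49.5 CPM in members and 156 in those barcodes, and Kit, the stem cell factor receptor, 26.4 and 53.3.

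The 10 genes with the largest difference below Flt3 Trbc2 barcodes were Ctla2a, Cd34, Prtn3, Car2, Mpo, Trbc1, Ifitm1, Cd27, Tox and Nkg7. They include the granule genes Prtn3 and Mpo of granulocyte progenitors, with 17.7 and 58.8 CPM in members against 229 and 422 CPM. Trbc1, Tox and Nkg7 are genes of T or NK cells, and all 3 were under 4 CPM in members. Cd27, a receptor of lymphoid progenitors and memory cells, had 15.9 CPM in members and 135 CPM in Flt3 Trbc2 barcodes.

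The 10 genes with the largest difference above all other barcodes were Igll1, Vpreb3, Mzb1, Vpreb2, Bfsp2, Chchd10, Cox6a2, Ighg2b, Cd24a and Myl4. Cd24a, a surface protein of precursor B cells, had 1682 CPM in members, against 113 CPM in Flt3 Trbc2 barcodes. Some of the 10 are not known as B-cell receptor genes. Bfsp2, named for a filament of the eye lens, was found in 152 members and had 410 and 412 CPM in libraries 3 and 4, against 31.3 CPM in Flt3 Trbc2 barcodes. Chchd10, a mitochondrial protein, had 1090 CPM in members and 36.7 in Flt3 Trbc2 barcodes. Myl4, a myosin light chain, had 240 and 14.0 CPM. Ptgr1, a prostaglandin reductase high against Flt3 Trbc2 barcodes, had 1114 and 73.4 CPM.

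Macrophage transcripts were low in members but not absent. All 15 macrophage genes were at least 4-fold lower than in all other barcodes, and their summed level was 558 CPM in library 3 members and 1054 CPM in library 4 members, against 1122 and 1236 CPM in the Flt3 Trbc2 barcodes and 42245 and 43616 CPM in the macrophages of those libraries. Of all compared genes 7.63% were at least 4-fold lower in members than in all other barcodes, and 9.69% at least 4-fold lower than in macrophages. C1qa, C1qb and C1qc had 27.7, 42.9 and 24.0 CPM, and 36 members had 3 or more UMIs of the 3 together. The rule itself capped Mrc1, Lyve1 and Csf1r, and the part of free macrophage RNA in these levels was not tested.

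Markers of other cell types were as follows. The 10 monocyte and granulocyte progenitor genes summed to 124 CPM in members and 719 in Flt3 Trbc2 barcodes, and 50 members had none. The 11 erythroid genes summed to 338 and 436 CPM in the members of libraries 3 and 4, against 2044 and 515 CPM in the Flt3 Trbc2 barcodes. Among 15 T and NK genes Cd3e, Cd3d, Trdc and Ncr1 had 0 UMIs in members, but Trbc2 had 237 CPM and was found in 113. The 8 mast cell and megakaryocyte genes summed to 113 CPM, with Mcpt1 at 0 UMIs and 1 member holding 175 UMIs of the list, and the 12 non-blood genes to 54.8 CPM.

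The 11 dendritic cell genes summed to 510 CPM in members, against 766 CPM in Flt3 Trbc2 barcodes and 631 in all other barcodes, and 4 members had none. Of the 11, Xcr1, Clec9a and Zbtb46 had 0 UMIs in members. Siglech, a marker of plasmacytoid dendritic cells, was found in 22 members, and 5 of these had 3 or more UMIs. The cut at 3 was set after values were seen. Those 5 members, 2 in library 3 and 3 in library 4, had 0 UMIs of Igll1, Vpreb1 and Vpreb2. Their Irf8, a factor of dendritic cells, stood at 1965 CPM (1621 to 2360), against 101 CPM (90.6 to 113) in the other 166 members. Ly6d had 4257 CPM in the 5 and 149 CPM in the others, and Ebf1 had 293 CPM in the 5 and 1189 CPM in the others. Igkc had 69 of its 291 UMIs in 3 of the 5. The 5 held 247 of the 718 Ly6d UMIs of all members, 114 of 434 Irf8 UMIs and 140 of 710 Cd74 UMIs, so sums of these genes rest on them in part.

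Members with and without Igll1 UMIs differed in many genes, in a split also made after values were seen. Ebf1 had 1280 CPM in the 132 with Igll1 and 683 CPM in the 39 without, and Ccnd3 had 723 and 280. Trbc2 ran the other way, with 184 CPM in those with and 479 in those without. Ly6d had 127 CPM in those with and 664 in those without, but 263 CPM in the 34 without Igll1 that were not among the 5 Siglech members. The 5 highest of these 34 held 122 of their 137 Ly6d UMIs, and the 5 highest of those with Igll1 held 173 of 334. Cd74 had 66.4 CPM in those with and 926 in those without, where 7 members held 524 of 535 UMIs. Hmga2, a chromatin protein of fetal progenitors, had 122 CPM in those with Igll1 and 227 CPM in those without. Among the 34 without Igll1 and outside the 5 Siglech members, 5 members held 88 of 131 Hmga2 UMIs. The 5 highest of those with Igll1 held 67 of 322. Lyz2, a macrophage and granulocyte gene, had 105 CPM in those with Igll1 and 479 in those without, and 1 member without Igll1 held 209 UMIs of it. Median depth was 18832 UMIs with and 13374 UMIs without Igll1, and the part of depth in the split was not tested.

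**Figure D2:**
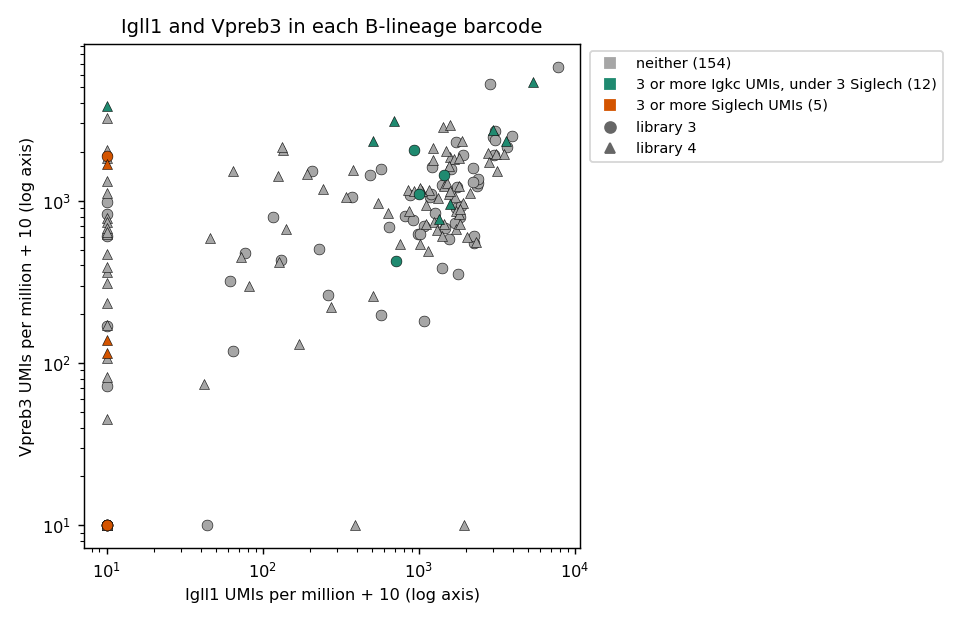
Igll1 and Vpreb3 CPM plus 10 (both log axes) in each of the 171 B-lineage barcodes, circles for library 3 and triangles for library 4. The 5 barcodes with 3 or more Siglech UMIs (orange) all lie at the left edge with no Igll1, whereas 11 of the 12 others with 3 or more Igkc UMIs (green) carry Igll1.

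The 15 members with 3 or more UMIs of Igkc or Iglc1 had lower levels of several precursor genes than the others. Rag1 had 24.2 CPM in them (7.84 to 56.4), against 93.4 CPM (82.8 to 105) in the other 156. Flt3 had 1 UMI and Kit had 0, against 52.5 and 28.3 CPM in the others. Il7r was not lower, with 188 CPM in the 15 (134 to 258) and 123 CPM in the others (111 to 137), and these intervals overlapped. Hmga2 had 29.0 CPM in the 15 and 149 CPM in the others. Of the 15, 3 were Siglech members. Without the Siglech members Rag1 had 22.8 CPM in the remaining 12 and 93.6 in the other 154. Ly6d had 451 CPM in the 12, against 1213 in all 15, and 5 of the 12 held 77 of their 79 Ly6d UMIs. Igll1, by contrast, had 1135 CPM in the 15 and 1050 in the others, with overlapping intervals, and 11 of the 15 carried it. Of the 15, 6 also had 3 or more Cd74 UMIs.

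Most members carried transcripts of dividing cells. After thinning to 2000 UMIs, Mki67 or Top2a was found in 59.9% of 167 members (52.0 to 67.4), against 50.9% of 405 Flt3 Trbc2 barcodes (45.9 to 55.8), 45.9% of 919 Mpo Elane progenitors (42.7 to 49.2) and 24.5% of 1949 macrophages (22.6 to 26.5). Without thinning the shares were 87.7%, 86.7%, 91.4% and 61.0%. The median depths of these classes were 17909, 23213, 28194 and 16482 UMIs, and Col1a1 Col3a1 barcodes, with 10005 UMIs, had 22.6% after thinning. In a separate random draw per library, 58.0% of members in library 3 and 54.1% in library 4 had either gene after thinning.

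Genes of DNA synthesis and of mitosis were both high. The 43 S-phase genes summed to 5014 and 5194 CPM in the members of libraries 3 and 4, against 4103 and 4032 CPM in Flt3 Trbc2 barcodes and 2595 and 2407 in macrophages. The 54 G2/M genes summed to 11064 and 10111 CPM in members, against 9010 and 9210 CPM in Flt3 Trbc2 barcodes and 5340 and 5160 CPM in macrophages. Against Flt3 Trbc2 barcodes, 29 S and 35 G2/M genes reached 50 CPM, and none of these was at least 4-fold higher or lower. The median differences of the whole lists, low genes included, were 0.17 and 0.12 (log2), against 0.00 over genes at 50 CPM. Rrm2, a subunit of the enzyme that makes deoxynucleotides, had 324 CPM in members and 140 CPM in Flt3 Trbc2 barcodes.

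Single members spread widely along both axes. S-phase genes made up a median of 0.487% of a member's UMIs, ranging from 0.0647 to 1.37%, and G2/M genes a median of 0.810%, ranging from 0.115 to 3.09%. G2/M genes reached 1% of UMIs in 42.7% of members (35.2 to 50.5), against 35.6% of Flt3 Trbc2 barcodes (31.0 to 40.5) and 14.1% of macrophages (12.6 to 15.7). There were 15 members between 0.9 and 1.1%, so the cut at 1% divides a range and not separate classes. The share was 46.4% in library 3 and 40.2% in library 4, with overlapping intervals.

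**Figure D3:**
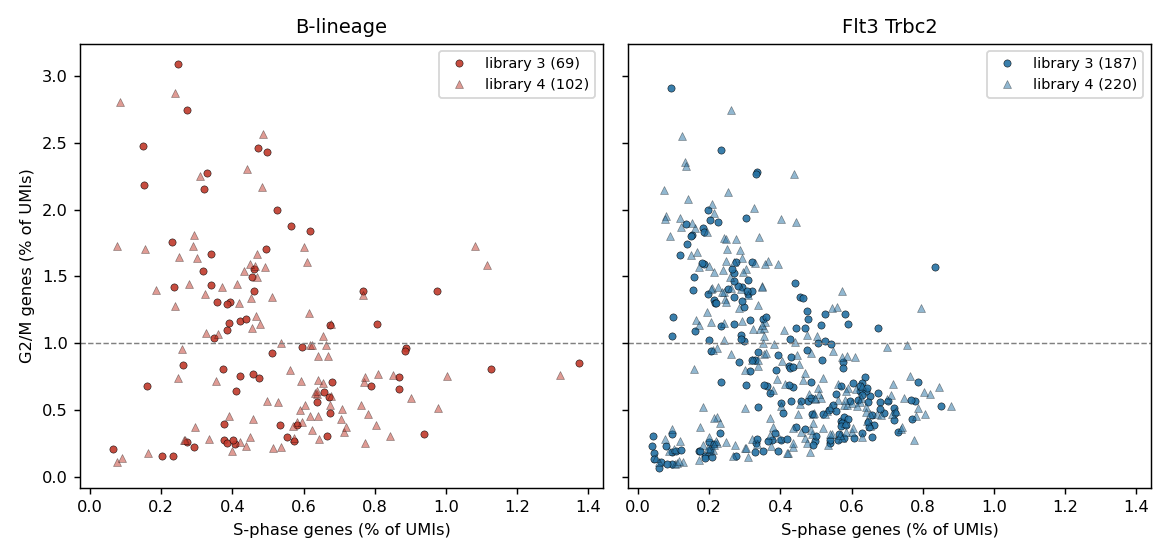
Share of UMIs in S-phase genes (x axis, percent) and in G2/M genes (y axis, percent) for each B-lineage barcode (left, 69 in library 3 and 102 in library 4) and each Flt3 Trbc2 barcode (right, 187 and 220), with a dashed line at 1% G2/M. In both classes barcodes reach high G2/M values, and 42.7% of B-lineage barcodes lie on or above the line, against 35.6% of Flt3 Trbc2 barcodes.

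The 73 members at or above 1% G2/M had more Igll1, with 1338 CPM (1283 to 1396) against 764 CPM (722 to 809) in the other 98. Ebf1 had 1385 CPM in the 73 and 954 CPM in the others. Rag1 was level, with 88.5 CPM in the 73 and 89.5 CPM in the others. Myc, a driver of growth, had 47.3 CPM in the 73 and 100.2 CPM in the others. The 21 members with neither Mki67 nor Top2a had a median depth of only 8465 UMIs, against 18803 UMIs in the 150 with either, and the part of depth in that split was not tested.

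Among 24 regulators of the cell cycle, Ccnd3 stood out. Ccnd3 encodes cyclin D3, the D-type cyclin that pre-B cells are known to need in mice, and had 632 and 652 CPM in the members of libraries 3 and 4, against 106 CPM in Flt3 Trbc2 barcodes, 106 in macrophages and 260 in Mpo Elane progenitors. It was the 1 gene of this list at least 4-fold higher than in Flt3 Trbc2 barcodes, at a log2 difference of 2.50. Of the 24 genes, 13 reached 50 CPM in that comparison, and 1.23% of all compared genes were at least 4-fold higher. A count of 1 gene says little about the list. The other D cyclins ran the other way, with Ccnd2 at 93.7 CPM in members and 226 in Flt3 Trbc2 barcodes and Ccnd1 at 32.4 and 97.2. The inhibitors Cdkn1a and Cdkn1b had 78.1 and 23.0 CPM in members, against 103 and 14.8 in Flt3 Trbc2 barcodes.

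Lin28b and Arid3a, which mark fetal B lymphopoiesis in mice, were both present, but at levels no higher than in Flt3 Trbc2 barcodes. Lin28b, at chromosome 10, 45376620 to 45486395 (GRCm38, minus strand), had 13.2 and 16.7 CPM in the members of libraries 3 and 4. Flt3 Trbc2 barcodes had 19.1 CPM (16.4 to 22.1), macrophages 7.61 CPM (7.01 to 8.25) and Mpo Elane progenitors 10.7 CPM, so the members at 15.2 CPM (11.3 to 20.2) lay above macrophages and overlapped the Flt3 Trbc2 barcodes. It rested on 49 UMIs in 39 members, 16 in library 3 and 23 in library 4, with no more than 3 in any. Unthinned, 22.8% of members held a Lin28b UMI, against 34.4% of Flt3 Trbc2 barcodes, 12.8% of macrophages and 2.74% of Col1a1 Col3a1 barcodes, and thinned shares of 2.40%, 2.96%, 1.64% and 0.472% rest on 4, 12, 32 and 1 barcodes and give no order. A separate draw per library gave 2 and 4 members, which shows how far chance in thinning moves so small a count. Lin28a had 0 UMIs in members.

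Arid3a, a DNA-binding protein (chromosome 10, 79927043 to 79955018, plus strand), had 66.8 and 50.2 CPM in the members of libraries 3 and 4. Flt3 Trbc2 barcodes had 78.0 CPM (72.5 to 83.9), macrophages 85.7 (83.7 to 87.8) and Mpo Elane progenitors 79.1, all above the members at 57.2 CPM (49.3 to 66.2), although by less than 4-fold. Arid3a was found in 97 members. It was higher in the 5 Siglech members, at 241 CPM, than in the other 166, at 53.9 CPM.

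In the wider fetal list, 9 of 18 genes reached 50 CPM in the comparison with all other barcodes and 8 in that with Flt3 Trbc2 barcodes. None of these was at least 4-fold higher or lower. The median differences of all 18 were 0.04 and -0.03, against 0.12 and 0.00 over genes at 50 CPM. Those medians cover unlike sets, since the constant of 10 CPM draws low genes towards no difference. Hmga2 had 165 and 123 CPM in the members of libraries 3 and 4, against 368 CPM in Flt3 Trbc2 barcodes and 10.3 in macrophages, and so lay between them. H19, an imprinted RNA of growing fetal tissue, had 290 and 321 CPM in members, against 69.8 CPM in Flt3 Trbc2 barcodes and 123 CPM in macrophages. With the constant of 10 CPM H19 lay just under 4-fold above Flt3 Trbc2 barcodes, and without the constant over 4-fold. Igf2bp1 and Igf2bp3, which bind RNA in fetal cells and the second of which acts with Lin28b in mouse B cells, had 53.8 and 95.8 CPM in members and 50.8 and 102 in Flt3 Trbc2 barcodes. Igf2, Sox17 and Trim71 had 1, 0 and 0 UMIs in members.

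The seed of let-7, which Lin28b keeps from forming, is shown with 3 matches in the 3′ UTRs of fetal genes measured here, since all 3 genes are in the fetal list. The mature sequence is from RefSeq (GRCm38.p6) with bases 2 to 8 in capitals. Of 11 mature let-7 and miR-98 sequences 10 shared this seed, GAGGUAG. The UTR stretches are 30 bases on the gene's strand (GENCODE M21, GRCm38), with the matching word CTACCTC in capitals, at chr10:45381011-45381040 (minus) for Lin28b, chr10:79953899-79953928 (plus) for Arid3a and chr10:120364213-120364242 (minus) for Hmga2.
mmu-let-7a-5p: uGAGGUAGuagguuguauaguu
Lin28b: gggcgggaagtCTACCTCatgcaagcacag
Arid3a: caagtttctttCTACCTCaggtcttttgat
Hmga2: acattcaatttCTACCTCagcatcagttgg
The word was found in the 3′ UTRs of 10 of 12 fetal genes looked at, among them Lin28b with 4, Hmga2 with 4 and Arid3a with 2. Of 20999 genes with a 3′ UTR, 9.03% held it. The 12 genes were picked by name and had UTRs of 402 to 6337 bases, so these shares are not like for like. The word is a match of letters and says nothing of let-7 in these cells, whose mature forms were not measured.

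Of 19 genes named for B-1 cells, 8 reached 50 CPM in the comparison with all others and 6 in that with Flt3 Trbc2 barcodes. The median log2 differences of all 19, low genes included, were -0.24 and -0.25, against 0.12 and 0.00 over genes at 50 CPM. Cd5, the surface protein that defines B-1a cells, had 10 UMIs in 9 members, or 3.11 CPM (1.49 to 5.72), against 5.60 CPM in Flt3 Trbc2 barcodes. Bhlhe41, a factor that B-1a cells are known to need in mice, had 3 UMIs in members, and Zbtb32 and Fcrl5 had 0. Spn (CD43), which B-1 cells and early B-cell precursors both carry, had 24.9 CPM in members and 23.9 CPM in Flt3 Trbc2 barcodes. Of the 19 genes 1, Rras2, a small GTPase, stood 4-fold or more above all others, at 79.0 CPM in members and 15.5 in Flt3 Trbc2 barcodes, and 3, Cd9, Anxa2 and S100a6, were at least 4-fold lower, where 2.28% and 7.63% of compared genes were. Against Flt3 Trbc2 barcodes none of the 6 at 50 CPM was higher or lower by 4-fold. Plac8, found in every member at 1852 CPM, was higher still in Mpo Elane progenitors, at 2999 CPM.

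**Figure D4:**
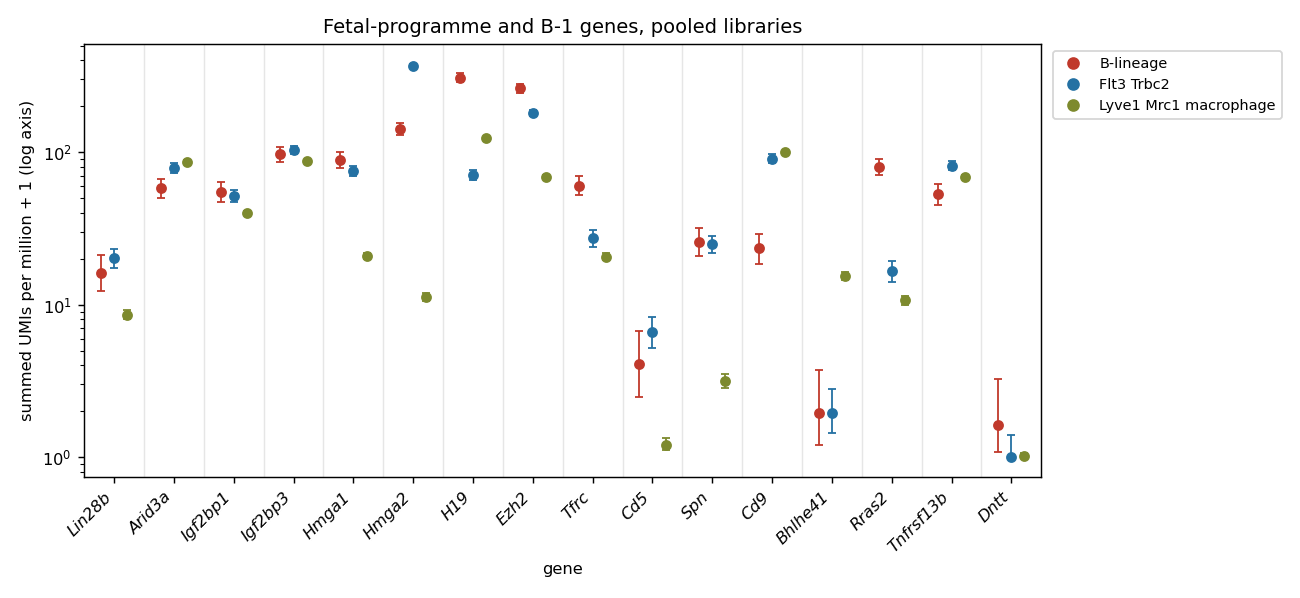
Summed CPM plus 1 (log axis) of fetal-programme and B-1 genes in B-lineage, Flt3 Trbc2 and Lyve1 Mrc1 macrophage barcodes, pooled over libraries, with exact Poisson 95% intervals. Lin28b in B-lineage barcodes (15.2 CPM) lies beside Flt3 Trbc2 barcodes (19.1) and above macrophages (7.61), Arid3a lies below both, and Cd5, Bhlhe41 and Dntt lie near the floor.

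The reporter tdTomato, which would mark progeny of cells labelled through Csf1r or Cx3cr1, was low in members. It had 15.4 and 28.1 CPM in the members of libraries 3 and 4, against 32.9 CPM in Flt3 Trbc2 barcodes and 275 in macrophages. After thinning, 4.19% of members (1.70 to 8.45) held a tdTomato UMI, against 8.89% of Flt3 Trbc2 barcodes, 38.5% of macrophages and 8.49% of Col1a1 Col3a1 barcodes (5.11 to 13.1). The share in members was no higher than in Col1a1 Col3a1 barcodes, and no expression is read from it.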

How the data were processed

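The labels' protocols describe droplet sequencing on the 10x Genomics platform. The authors deposited UMI counts as a single matrix, with 31054 features and 39048 barcodes. Its header gives Cell Ranger 3.0.1, and version 2.1.1 with mm10 stands in the submitters' processing notes. No per-sample column was left unused. Members, gene lists and comparisons were chosen with earlier results of these data known. CPM come from UMIs summed per class, with exact Poisson 95% limits. For shares the limits are Clopper-Pearson (exact binomial), or what 3 counts allow where the share is 0. Comparison classes needed Flt3 of 1 and Trbc2 of 2 UMIs, or 3 UMIs each of Lyve1, Mrc1 and Csf1r, of Mpo and Elane, or of Col1a1 and Col3a1, all with no Cd79a. Shares and cell-cycle values of these classes use libraries 3 and 4, their CPM all 4 libraries unless a library is named. The text names list genes and, per comparison, the 10 highest and 10 lowest genes at 50 CPM with 1 direction in both libraries (5 between libraries), leaving out ribosomal, mitochondrial and predicted genes. Doublets were sought with Scrublet (scanpy 1.11.5), and marked barcodes were kept. The steps were tested on simulated data. Some genes of the lists are not reported here. No test was run, since the matrix is 1 pooled sample.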

Additional observations from a re-analysis of the deposited data

How the results depend on the processing

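No paired analysis was possible because the barcode numbers carry no sample or replicate and no test was run. Summary values and 22 genes were recomputed under 13 other settings, each for the results it bears on, of which 2, leaving out members without Igll1 and taking other barcodes from libraries 3 and 4 only, were chosen after seeing the data. Of 141 recomputed summary values 120 stayed within the main counting interval or, for gene counts, within 1.5 times, and 21 moved. Of 416 gene differences 393 did not move by that measure and 23 moved, 22 of them with a pseudocount of 1 CPM. Direction was checked only for genes counted as at least 4-fold higher or lower in the main run, and 0 of those turned. Smaller differences were not checked for direction. The share of members was 0.959% in library 3 and 0.853% in library 4 alone, 0.390% without members with 3 or more C1q UMIs and 0.382% without members lacking Igll1. Summed G2/M genes had 10692 CPM with a Cd79a minimum of 5, 10360 without the C1q members, 11064 in library 3, 10111 in library 4 and 11355 without members lacking Igll1, and S genes 5014 in library 3 and 5280 without members lacking Igll1. Arid3a had 66.8 CPM in library 3. Genes at least 4-fold lower than in Flt3 Trbc2 barcodes numbered 33 without members lacking Igll1, against 21 with all members. Shares followed depth by construction. Unthinned, 87.7% of members had Mki67 or Top2a, 22.8% Lin28b and 56.7% Arid3a, and at 5000 UMIs 79.4%, 6.88% and 25%. Without members lacking Igll1, 6.20% had Lin28b and 5.43% Arid3a after thinning to 2000 UMIs in a new random draw, and the cause was not tested. Depth limits statements on Lin28b, Cd5, Dntt and light chains, which rest on few UMIs.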

Other observations

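Of 18 homing and cytokine receptor genes, 1 was at least 4-fold higher and 1, Itgb7, at least 4-fold lower in B-lineage than in Flt3 Trbc2 barcodes, where 1.23% and 0.701% of compared genes were, and the median log2 difference of the list was -0.28. Cxcr4, the receptor for the chemokine that holds B-cell precursors in their niche, had 36.7 and 68.0 CPM in the B-lineage barcodes of libraries 3 and 4, against 9.93 CPM in Flt3 Trbc2 barcodes. Itgb7, an integrin chain of gut homing, had 5.60 CPM in B-lineage barcodes and 61.3 CPM in Flt3 Trbc2 barcodes, and Ccr9, a receptor of cells bound for the thymus, 25.8 and 121 CPM.

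Xist, the RNA of the inactive X chromosome, had 0 UMIs in B-lineage barcodes and 201 CPM in all other kept barcodes, but those of libraries 3 and 4 had only 0.22 and 0.09 CPM. The number of genes at least 4-fold higher than in other barcodes was 76 over all libraries and 68 when the other barcodes came from libraries 3 and 4 only, and 254 and 212 were lower.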
